A study of Mus musculus with 8 samples.

Results

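The 19 mouse autosomes were cut into windows of 10 Mb from position 0, and 252 windows with 5 or more expressed genes were kept, of 256 autosomal windows that held any gene of the table. A gene counted as expressed at a mean of 1 or more CPM (the count scaled to the library's total) over the 8 libraries. The windows hold 12321 of the 22691 genes of the table, from 5 to 178 genes each with a median of 40, and 10 windows hold fewer than 10 genes. The value of a window in a library is the median over its genes of log2 CPM (with 0.5 CPM added) minus the gene's mean over the 4 libraries of the same arm. A value of 1 therefore stands for expression 2-fold above the mean of the 4 cultures, and a gain in 1 culture lowers the value of the other 3.

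RNA was sequenced from mouse small cell lung cancer (SCLC) cells, a neuroendocrine tumor of the lung, taken from primary tumors of FVB/n; 129/Ola mice. All cultures carried the genotype invCAG-Mycl-Luc; Rb1-/-; Trp53 -/-, so a Mycl transgene and the loss of both tumor suppressors were shared by every group, controls included. The cultures are Lmyc1 old, Lmyc3 old, Lmyc3 new and Lmyc5 new, where "old" and "new" are words of the sample descriptions that no source used here explains. Each gave 1 library with an empty vector and 1 in which Nfib, a DNA-binding protein known to promote SCLC in mice, was overexpressed, and neither arm was repeated within a culture. Libraries summed to between 21815264 and 29934021 counts, so that 3 counts, the limit that a count of 0 allows, lay between 0.10 and 0.138 CPM (counting error only). The summed level of 8 neuroendocrine markers (such as Insm1 and Chga) was 1860 to 4570 CPM. Neurod1 was the lowest of the 8, at 0 to 19.3 CPM. Leukocyte markers (3 of 4 were in the table) summed to 1.5 to 2.54 CPM, fibroblast markers (4 of 4) to 0.30 to 12.7 CPM, endothelial markers (3 of 3) to 0.0376 to 6.90 CPM and alveolar and airway markers (4 of 4) to 1.88 to 11.8 CPM, and no marker in the table was at 0 in all libraries. The highest sum of each of these other lists was mostly 1 gene. In the Nfib library of Lmyc5 new these were Cd68 (2.31 CPM, leukocyte) and Pdgfra (12.4 CPM, fibroblast). Kdr (6.64 CPM, endothelial) was so in the Nfib library of Lmyc3 new, and Sftpc (10 CPM, alveolar) in the empty vector library of Lmyc3 old. In such bulk RNA, fewer cells of a type and less RNA per cell cannot be told apart.

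Tumor cells often gain or lose whole chromosomes or stretches of them. Genes on a gained stretch tend to give more RNA and genes on a lost one less, so that neighbours along a chromosome move together whatever their function. A short stretch copied many times over, an amplification, raises all its active genes at once and is a common way for tumors to overexpress an oncogene. Neighbouring genes can also move together without any change in DNA, as in clustered gene families that share regulatory elements. DNA was not analysed here, so the part of copy number in any window value was not tested.

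The promoters below mark the place to which the largest change in level was traced. Abhd13, a hydrolase gene, is the last expressed gene before a block of raised genes on chromosome 8 of Lmyc1 old. Myo16, an unconventional myosin gene, is the first gene of that block, and Lamp1, a lysosomal membrane glycoprotein gene, is its gene of highest CPM, which is not scaled for gene length. Sequences are those of RefSeq (GRCm38.p6), 300 bases around each start, 5′ to 3′ on the gene's strand, at chr8:9977467-9977766, chr8:10153661-10153960 and chr8:13158911-13159210 (all + strand). Capitals mark CACGTG, the E-box that MYC family proteins can bind, which reads the same on both strands. The RefSeq start of Myo16 lies before the start given in the deposited table.
Abhd13: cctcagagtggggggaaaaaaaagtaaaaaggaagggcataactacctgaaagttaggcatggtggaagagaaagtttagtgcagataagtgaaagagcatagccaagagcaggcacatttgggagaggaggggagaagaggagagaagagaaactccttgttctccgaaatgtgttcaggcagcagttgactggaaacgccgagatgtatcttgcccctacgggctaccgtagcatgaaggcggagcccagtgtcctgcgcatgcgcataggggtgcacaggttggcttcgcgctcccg
Myo16: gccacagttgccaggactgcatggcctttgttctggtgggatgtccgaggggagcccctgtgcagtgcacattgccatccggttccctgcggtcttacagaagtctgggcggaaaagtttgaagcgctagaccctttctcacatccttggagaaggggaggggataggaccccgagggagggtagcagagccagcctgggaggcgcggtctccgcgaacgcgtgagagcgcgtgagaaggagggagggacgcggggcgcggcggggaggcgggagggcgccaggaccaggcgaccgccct
Lamp1: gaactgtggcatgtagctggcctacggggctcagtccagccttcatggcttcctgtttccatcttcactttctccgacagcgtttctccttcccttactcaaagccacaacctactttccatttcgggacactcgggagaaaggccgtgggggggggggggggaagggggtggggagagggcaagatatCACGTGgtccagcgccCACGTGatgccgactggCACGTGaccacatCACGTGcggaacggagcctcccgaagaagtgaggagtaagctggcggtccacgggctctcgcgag
CACGTG occurred 4 times in the Lamp1 promoter and in neither of the others. Of 32851 promoters in the RefSeq set, 7.15% held it. Promoters were matched for 29 of the 41 genes of the block, and 4 of these genes (13.8%) held the motif, against 8.09% of all genes with a promoter in the set. Kbtbd11 and Myom2, the genes at the far edge of the block, had no promoter in the set.

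Window values were mostly close to 0 and nearly the same in both libraries of a culture. Across the 252 windows, the empty vector and Nfib libraries of a culture correlated with Pearson's r of 0.949 in Lmyc1 old, 0.903 in Lmyc3 old, 0.943 in Lmyc3 new and 0.929 in Lmyc5 new. These are descriptions across windows, which are not independent replicates. The median difference between the 2 arms of a culture was 0.036 to 0.054 on the log2 scale, while windows at the extremes lay at 2.24 and -1.09. Of the windows beyond 0.25 in an empty vector library, the Nfib library of the same culture lay on the same side of 0 in 24 of 24 for Lmyc1 old, 42 of 42 for Lmyc3 old, 32 of 33 for Lmyc3 new and 28 of 28 for Lmyc5 new. It was itself beyond 0.25 in 20, 32, 27 and 20 of them.

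**Figure D1:**
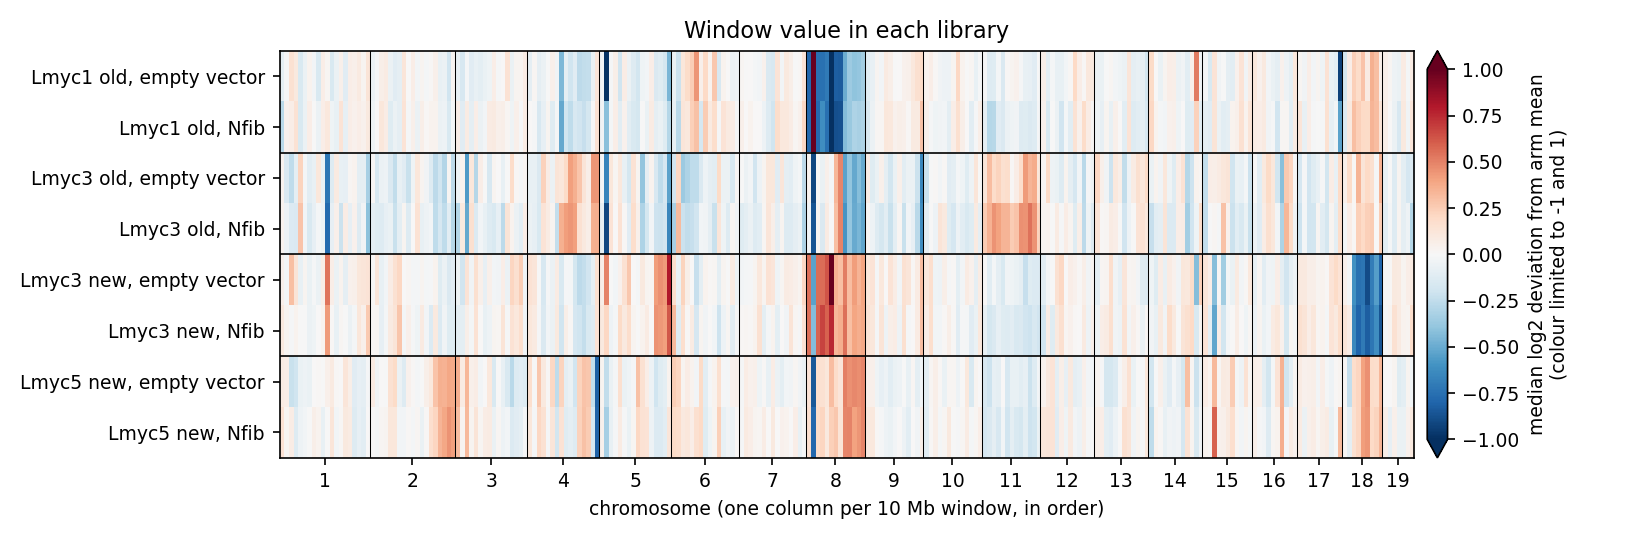
Window value in each of the 8 libraries (rows), with one column per kept window in chromosome order; red is above and blue below the mean of the arm, and colours stop at -1 and 1. Chromosomes 8 and 18 and parts of 2, 4, 5 and 11 stand out as stretches of several windows, with the same colour in both libraries of a culture.

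Each culture was then compared with the mean of the 4 cultures by limma, with the arm in the fit and p-values adjusted by Benjamini-Hochberg over all windows and cultures. A window was called at an adjusted p under 0.05 with a size of at least 0.25. The spread in this test is how the difference between the 2 arms varied from culture to culture, not one between independently grown cultures. With it many windows passed the p threshold alone: 46.8% in Lmyc1 old, 61.5% in Lmyc3 old, 45.6% in Lmyc3 new and 40.9% in Lmyc5 new. In Lmyc1 old 8 windows were called higher (3.17% of 252) and 18 lower (7.14%). Lmyc3 old had 21 higher (8.33%) and 24 lower (9.52%). For Lmyc3 new the counts were 19 higher (7.54%) and 11 lower (4.37%), and for Lmyc5 new 19 higher (7.54%) and 2 lower (0.794%). In all, 70 windows on 16 chromosomes were called in at least 1 culture, and 51 of these hold 20 or more genes.

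**Figure D2:**
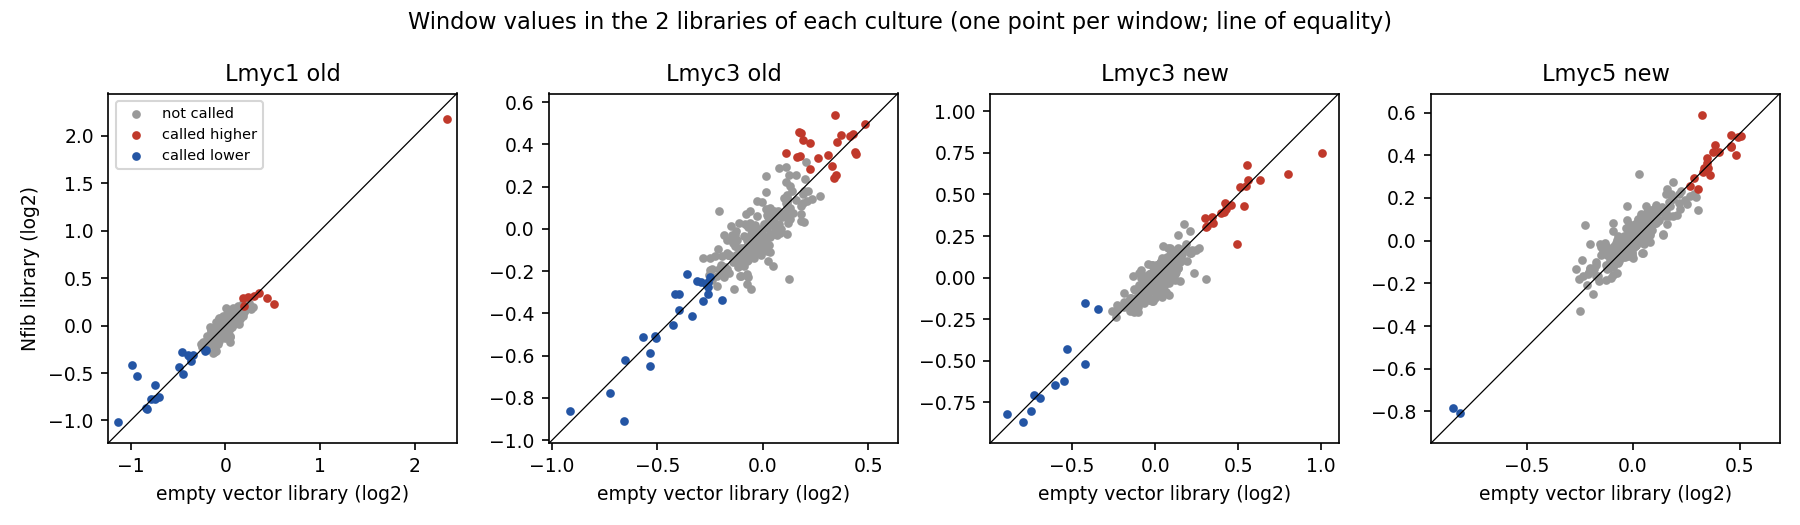
Window values of the empty vector library (x axis, log2) against the Nfib library (y axis, log2) of each culture, one point per window, with the line of equality and with axes that differ between panels. Red and blue points are windows called higher or lower, and the windows far from 0 in one library lie near the line.

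Many called windows lay side by side. The value of a window and that of its neighbour correlated across 232 neighbouring pairs with r of 0.592 in Lmyc3 new, 0.429 in Lmyc5 new, 0.396 in Lmyc3 old and 0.15 in Lmyc1 old. Without the window of chromosome 8 from 10 to 20 Mb (230 pairs), these were 0.687, 0.551, 0.445 and 0.696, so the low value of Lmyc1 old rested on that window. Of the called windows, 22 of 30 in Lmyc3 new had a neighbour called in the same direction. So had 13 of 21 in Lmyc5 new, 25 of 45 in Lmyc3 old and 13 of 26 in Lmyc1 old. Over all 252 windows, 0.794% to 9.52% were called in a given direction in a culture. The share of all windows with such a neighbour was not computed, so these counts are a description. The called windows with such a neighbour formed 16 runs of 2 or more windows, which lie on chromosomes 2, 4, 5, 6, 8, 11 and 18. Called windows and runs were picked by the median of their genes. The shares of their genes called singly, given below, come from the same counts and describe them without adding support.

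**Figure D3:**
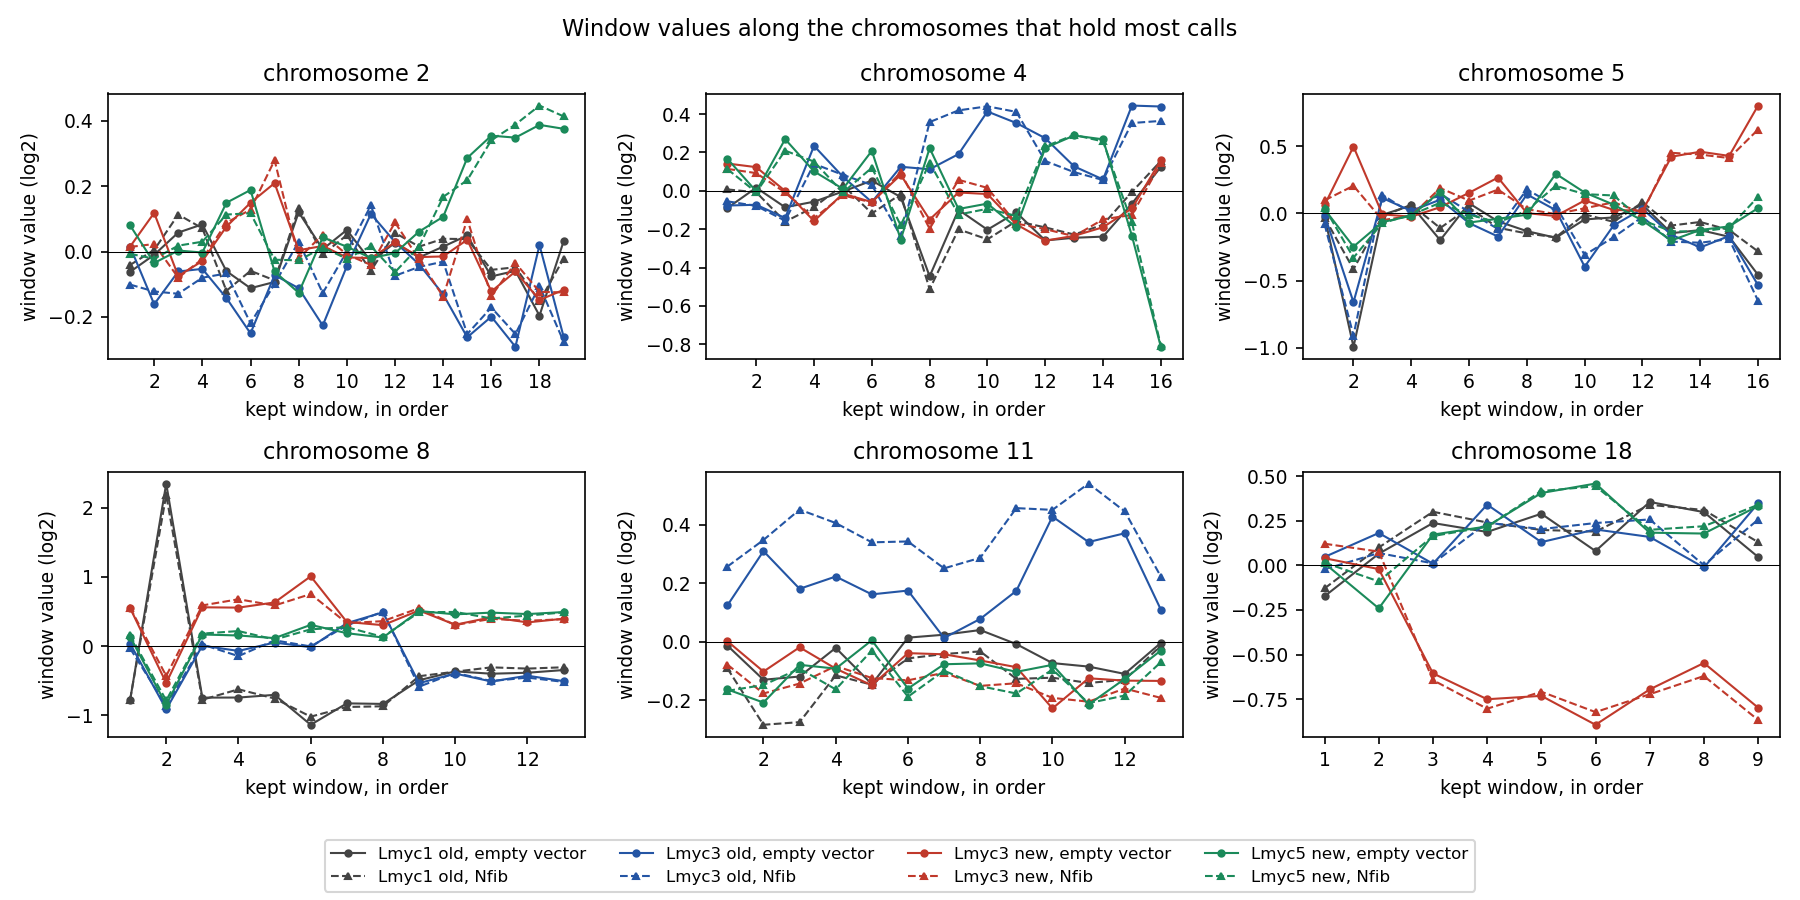
Window values (y axis, log2, scale differs between panels) along chromosomes 2, 4, 5, 8, 11 and 18 in window order, with solid lines and circles for empty vector and dashed lines and triangles for Nfib libraries. Single cultures leave the others in steps, such as Lmyc3 new on chromosome 18, and the single high point is the second window of chromosome 8 in Lmyc1 old.

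The window of highest value was chromosome 8 from 10 to 20 Mb, with 50 genes. Its value was 2.35 in the empty vector and 2.18 in the Nfib library of Lmyc1 old. The other 3 cultures lay at -0.91 and -0.86 (Lmyc3 old), -0.53 and -0.43 (Lmyc3 new), and -0.85 and -0.79 (Lmyc5 new), so Lmyc1 old did not overlap any of them. The estimate for Lmyc1 old was 2.24 ± 0.040 (SE, limma adjusted p of 1.33e-07), or 2.99 above the mean of the other 3. The other 3 cultures were all called lower here, at -0.91, -0.50 and -0.84, relative to a mean that Lmyc1 old raises. Without Lmyc1 old none of them was called: Lmyc3 old lay at -0.17, Lmyc5 new at -0.08 and Lmyc3 new at 0.24, where its sign turned.

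Within that window the rise was carried by a block of 41 neighbouring expressed genes from Myo16 to Kbtbd11 (chr8:10272572-15033333, GRCm38, gene starts and ends of the deposited table), a span of 4.76 Mb. The edges were set from the gene values themselves, so its counts are a description. In 38 of the 41 genes the mean deviation of Lmyc1 old exceeded 1, and the exceptions were Col4a1, Arhgef10 and Dlgap2. By edgeR's quasi-likelihood test of Lmyc1 old against the other 3 cultures, 38 of the 40 tested genes of the block passed higher and 2 lower, where over all 13380 tested genes 23.3% passed higher and 18.4% lower. The median log2 fold change of the block was 3.5, which is 11.3-fold.

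Lamp1 stood at 7810 and 6000 CPM in the empty vector and Nfib libraries of Lmyc1 old and at 304 to 571 CPM in the 6 other libraries. Both libraries of Lmyc1 old were far above the highest of the rest, with a log2 fold change of 4.17 ± 0.080 (SE, edgeR adjusted p of 9.81e-06). Tfdp1, which encodes the DP1 partner of E2F transcription factors, was at 4370 and 4230 CPM against 325 to 500 CPM, a log2 fold change of 3.49 ± 0.063. Atp11a, a phospholipid flippase gene, was at 3420 and 2810 CPM against 133 to 276 CPM. Cul4a, the scaffold of a ubiquitin ligase, stood at 2460 and 2330 CPM against 137 to 292 CPM, and Cdc16, a subunit of the anaphase-promoting complex, at 1860 and 1530 CPM against 125 to 164 CPM. In each of these genes the 2 libraries of Lmyc1 old were above all 6 others.

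Arhgef7, an exchange factor for small GTPases, was at 1280 and 1220 CPM in Lmyc1 old against 136 to 256 CPM. Ing1, a reader of histone marks, was at 531 and 495 CPM against 50.7 to 136 CPM. Sox1, a transcription factor of the nervous system, rose least of the genes named here, from 127 to 487 CPM elsewhere to 793 and 790 CPM, a log2 fold change of 1.39 ± 0.197 (edgeR adjusted p of 0.00393). Of the genes called higher, Gm5607 had the highest log2 fold change, 5.72 ± 0.154, from 3.74 to 155 CPM elsewhere to 1270 and 1090 CPM. Sox1 lies inside the span of Gm5607, so reads of these 2 genes may not be told apart. Tdrp followed, a gene with a role in sperm formation, with 206 and 164 CPM against 3.64 to 6.24 CPM and a log2 fold change of 5.28.

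The 3 exceptions lay in the same stretch, and only Col4a1 and Arhgef10 went the other way. Col4a1, a basement membrane collagen gene, was at 0.468 and 0.748 CPM in Lmyc1 old, at 93.4 and 230 CPM in Lmyc3 old and at 0.354 to 4.77 CPM in the remaining libraries, and it passed lower in Lmyc1 old with a log2 fold change of -3.22 ± 0.382 (edgeR adjusted p of 0.0022). Arhgef10, another exchange factor, was at 10.5 and 10.9 CPM against 22.9 to 67.6 CPM and also passed lower. Dlgap2, a synaptic scaffold gene, was at 6.81 and 5.19 CPM against 0.796 to 5.42 CPM, so the cultures overlapped, and it passed higher at a log2 fold change of 1.57 ± 0.275.

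The block ended between neighbouring genes on the first side and less clearly on the other. Abhd13, 280417 bp before the table's start of Myo16, was at 32.8 and 36.5 CPM in Lmyc1 old and at 48.6 to 138 CPM elsewhere, and it passed lower. Myo16 itself was at 14.8 and 11.9 CPM against 0.199 to 4.37 CPM. At the far edge Kbtbd11 was at 384 and 384 CPM against 51.8 to 118 CPM. Myom2, a muscle M-band gene 24320 bp further on, was at 2.51 and 5.23 CPM against 0.458 to 3.15 CPM, with a log2 fold change of 1.65 ± 0.359 (edgeR adjusted p of 0.0161), although the cultures overlapped. The next expressed gene, Mcph1, a gene of the DNA damage response, was at 18 and 21.8 CPM against 32.4 to 53.2 CPM and passed lower.

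The block gave 3.5% of all counts in the empty vector library of Lmyc1 old (exact binomial 95% interval 3.5 to 3.51) and 3.03% in its Nfib library (3.02 to 3.04). In the 6 other libraries it gave 0.277% to 0.416%. By its share of the total, the block lowered the CPM of all other genes in Lmyc1 old by 0.051 and 0.044 on the log2 scale.

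**Figure D4:**
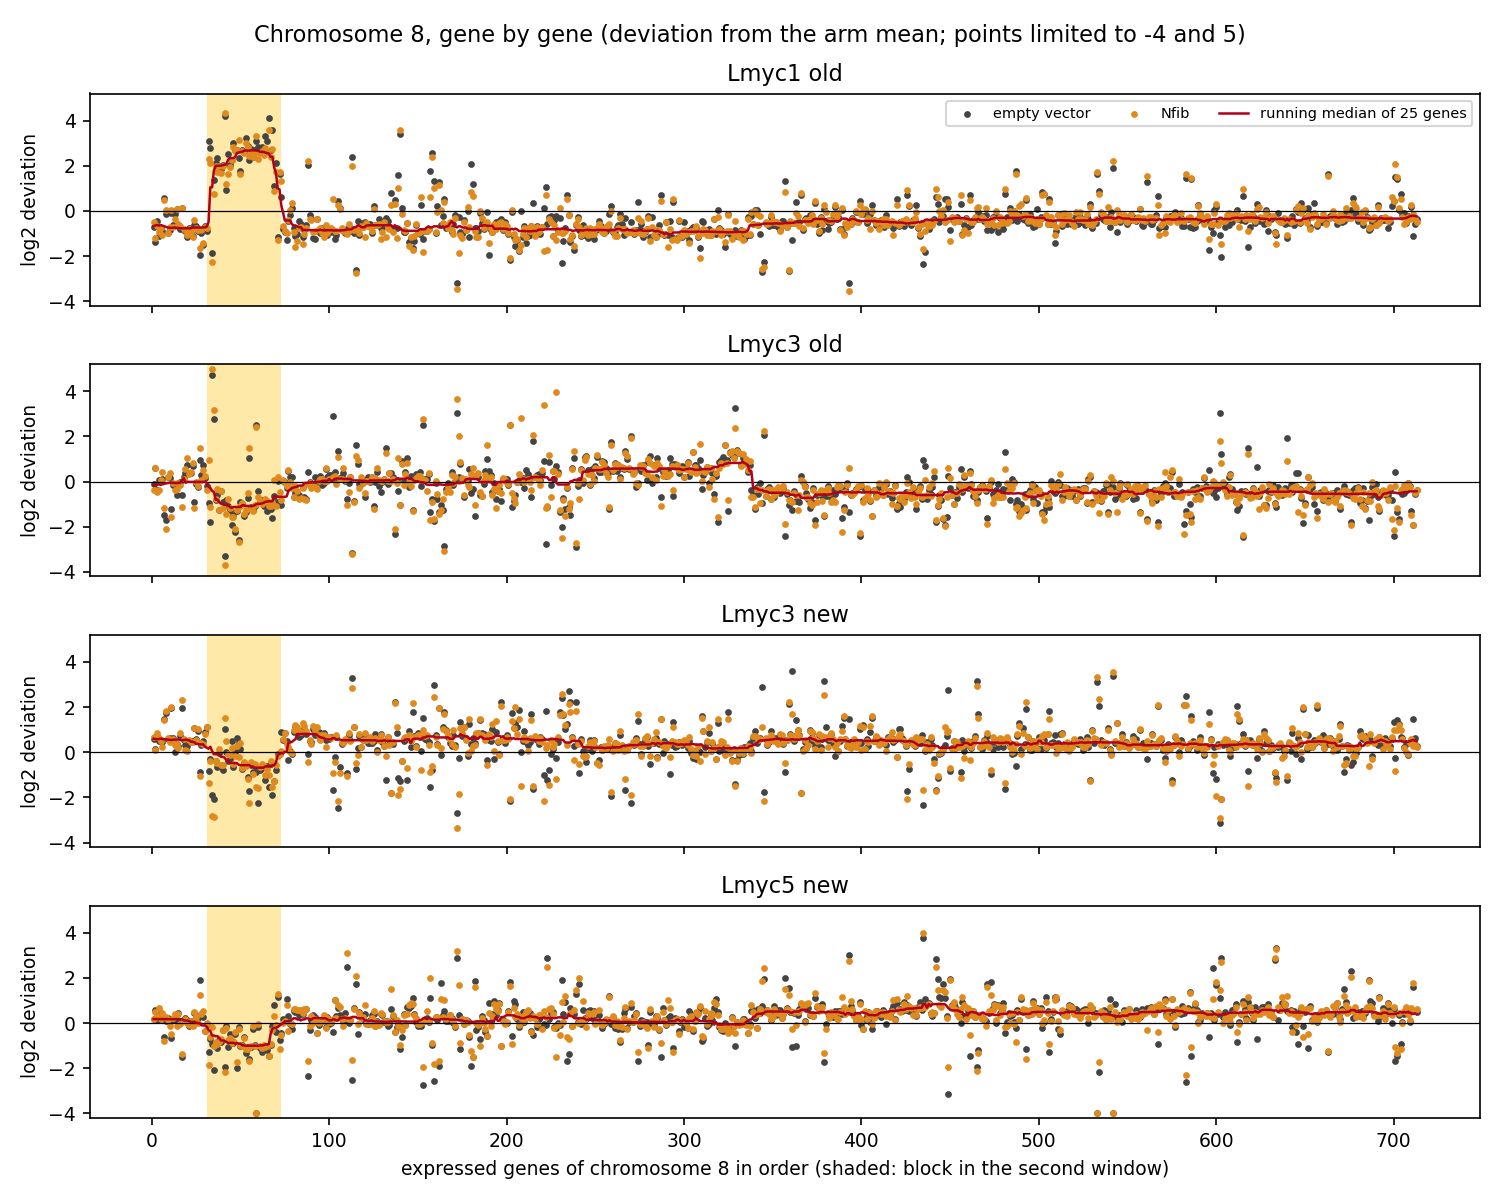
Deviation of each expressed gene of chromosome 8 from the mean of its arm (y axis, log2, limited to -4 and 5) in gene order (x axis), one panel per culture, with a running median of 25 genes and the block of 41 genes shaded. In Lmyc1 old the block stands above 0 between stretches below 0, and in Lmyc3 old the level drops at 1 place in the middle of the chromosome.

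Outside the block, chromosome 8 was low in Lmyc1 old. All 12 other windows were called lower, from -0.34 to -1.09. Of the 660 genes tested outside the block, 465 (70.5%) passed lower and 46 higher, against 18.4% and 23.3% over all genes. From 60 to 80 Mb the 2 windows were at -0.86 and -0.88, and from 80 to 130 Mb the 5 windows lay between -0.34 and -0.47, but Lmyc3 old, which is part of the mean, changed level between these stretches. Set against Lmyc5 new alone, Lmyc1 old was lower by 0.96 to 1.15 from 60 to 80 Mb and by 0.71 to 0.999 from 80 to 130 Mb. Against Lmyc3 old it was at -1.16 to -1.37 in the first stretch and at 0.02 to 0.21 in the other. Of the 11 windows from 20 to 130 Mb, 11 calls were kept without Lmyc3 old, 9 without Lmyc3 new and 7 without Lmyc5 new.

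Genes of many functions took part. Hmgb2, a chromatin protein of dividing cells, was at 148 and 180 CPM in Lmyc1 old against 329 to 520 CPM. Tpm4, a tropomyosin gene, was at 64.4 and 78.2 CPM against 180 to 623 CPM. Rbl2, which encodes the RB family member p130, was at 20.5 and 23.0 CPM against 27.1 to 66.6 CPM (log2 fold change -0.99 ± 0.103, edgeR adjusted p of 0.00138). Fgfr1, a growth factor receptor gene, was at 0.067 and 0.616 CPM in Lmyc1 old, at 1.58 and 4.91 CPM in Lmyc3 new and at 9.99 to 30.6 CPM in the other 2 cultures. In each of these genes both libraries of Lmyc1 old were below every other library. Fgfr1 fell by far more than its window (-4.95 ± 0.459, against -1.01), and its 0.067 CPM lay below the floor. Other named genes did not have Lmyc1 old lowest. Cpe was at 135 and 111 CPM there and at 96.2 and 51.1 CPM in Lmyc3 new, and did not pass (edgeR adjusted p of 0.159). Csgalnact1, at 2.67 and 3.3 CPM, overlapped with Lmyc3 old, at 2.43 and 4.24 CPM.

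Some genes of the chromosome outside the block went the other way. Tnks, which encodes tankyrase, a regulator of telomeres and of Wnt signalling (chr8:34829179-34965690), was at 2190 and 1830 CPM in Lmyc1 old and at 184 to 226 CPM elsewhere. Its log2 fold change was 3.32 ± 0.077 (edgeR adjusted p of 1.48e-05). Dusp4, a phosphatase gene just before it, was at 109 and 74.0 CPM in Lmyc1 old, at 10.5 to 26.0 CPM in both Lmyc3 cultures and at 67.5 and 193 CPM in Lmyc5 new, so it overlapped with Lmyc5 new. Tmem66, further before, and Eri1, on the other side, both passed lower in Lmyc1 old, at -1.09 ± 0.063 and -1.27 ± 0.065. Ppp1r3b, between Tnks and Eri1, and Cldn23, beyond Eri1, passed higher, at 1.94 ± 0.320 and 2.31 ± 0.244, although both were higher still in Lmyc3 new: Ppp1r3b was at 11 and 10.6 CPM in Lmyc1 old and at 35.6 and 29.8 CPM in Lmyc3 new. The 10 Mb window that holds Tnks was called lower at -0.69.

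In Lmyc3 new every window of chromosome 8 but that of the block was called higher. The 11 windows from 20 to 130 Mb were called higher, from 0.30 to 0.86, and so was the first window, at 0.57. Without Lmyc1 old, 6 of these 11 calls were kept and the values lay between 0.03 and 0.53. In the block, which was called lower in the mean of 4, Lmyc3 new gave 4063 and 4158 CPM in sum, above the 2768 to 3288 CPM of Lmyc3 old and Lmyc5 new. Of 620 genes tested in the run, 430 (69.4%) passed higher, against 26.8% of all genes in this culture. Slc25a4, a mitochondrial carrier gene, was at 798 and 650 CPM in Lmyc3 new and 303 to 689 CPM elsewhere. With the arms pooled, the empty vector library of Lmyc3 old overlapped, but within each arm Lmyc3 new was the highest. Pcm1, a centriolar satellite gene, was at 736 and 788 CPM against 188 to 505 CPM, above all other libraries.

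The window from 50 to 60 Mb, with 12 genes, had the highest value of Lmyc3 new. Its 2 libraries were at 1.01 and 0.75, those of Lmyc5 new at 0.31 and 0.24, those of Lmyc3 old at -0.02 and -0.01 and those of Lmyc1 old at -1.14 and -1.02. Spcs3, a signal peptidase gene, was at 305 and 273 CPM in Lmyc3 new, 136 to 207 CPM in Lmyc3 old and Lmyc5 new, and 57.0 and 65.4 CPM in Lmyc1 old. The cultures did not overlap at the ends of that order.

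Lmyc3 old changed level within chromosome 8. The windows from 60 to 80 Mb were called higher, at 0.31 and 0.47, though without Lmyc1 old they lay at -0.01 and 0.18 and neither was called. The 5 windows from 80 to 130 Mb were called lower, from -0.40 to -0.56, and all 5 calls were kept without Lmyc1 old. When the genes of the chromosome were split at the 1 place that best separated 2 levels, a procedure that always returns a place, both libraries gave the same one, between Sin3b and Large at 72.7 and 72.8 Mb. The median fell from 0.11 to -0.49 in the empty vector library and from 0.08 to -0.50 in the Nfib library. In the run from 80 to 130 Mb, 261 of 350 tested genes (74.6%) passed lower in Lmyc3 old, against 27.4% of all genes. Over the same stretch the median gene was at -0.39 and -0.34 in Lmyc1 old, 0.41 and 0.41 in Lmyc3 new, and 0.49 and 0.46 in Lmyc5 new. Lmyc1 old and Lmyc3 old were thus low there and Lmyc3 new and Lmyc5 new high, with no overlap. In Lmyc5 new these 5 windows formed a run called higher, from 0.445 to 0.497. Of 350 tested genes, 272 (77.7%) passed higher, against 26.1% of all genes in this culture. All 5 calls were kept whichever other culture was left out.

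Chromosome 18 was low in Lmyc3 new, and no window of it was called lower in another culture. The 7 windows from 20 to 90 Mb were called lower, from -0.56 to -0.84, while the first 2 windows were not called. The median gene of the run stood at -0.72 and -0.75 in Lmyc3 new and between 0.19 and 0.26 in the 6 other libraries, with no overlap. Of 279 genes tested, 226 (81.0%) passed lower and 19 higher, against 23.9% and 26.8% of all genes. The run was chosen from the same values, so these shares only describe it. Both libraries placed the step between Garem and Asxl3, at 21.1 and 22.3 Mb, where the median gene fell from 0.06 to -0.74 in the empty vector and from 0.10 to -0.75 in the Nfib library.

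Genes beside the step and beyond it were read singly. Garem, an adaptor of growth factor signalling, was at 20 and 24.2 CPM in Lmyc3 new and 14.5 to 28.5 CPM elsewhere, so the cultures overlapped. Asxl3, a Polycomb-associated gene, was at 25.7 and 27.0 CPM against 29.6 to 71.3 CPM, and Mapre2, a microtubule end-binding gene, at 50.0 and 42.2 CPM against 114 to 165 CPM. In the lowest window, 50 to 60 Mb with 22 genes, Lmnb1, which encodes lamin B1, was at 127 and 156 CPM against 217 to 314 CPM (log2 fold change -1.05 ± 0.133, edgeR adjusted p of 0.00188). Slc12a2, an ion cotransporter gene, was at 47.3 and 53.1 CPM against 93.6 to 124 CPM. Since each value is relative to the 4 cultures, the low values of Lmyc3 new lift the other 3 on this chromosome: Lmyc5 new had 3 windows called higher, Lmyc1 old 3 and Lmyc3 old 2. Without Lmyc3 new, the runs of 2 such windows in Lmyc1 old and in Lmyc5 new kept no call.

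Lmyc3 new was also high at the end of chromosome 5. The 4 windows from 120 to 160 Mb were called higher, from 0.42 to 0.75. Of 306 tested genes, 236 (77.1%) passed higher, against 26.8% of all genes in this culture. The median gene was at 0.44 in both libraries of Lmyc3 new and at -0.10 to -0.22 in the others. Both libraries placed the step at 116.4 Mb, between Hspb8 and Srrm4, from 0.03 to 0.44 and from 0.03 to 0.43. The last window of the chromosome, with only 8 genes, was also called lower in 2 cultures. It was at -0.53 and -0.65 in Lmyc3 old and at -0.46 and -0.28 in Lmyc1 old.

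The largest of the steps found in this way was at the end of chromosome 4 in Lmyc5 new. The window from 150 to 160 Mb (87 genes) was at -0.81 in both libraries of Lmyc5 new, at 0.12 and 0.16 in Lmyc1 old, 0.44 and 0.36 in Lmyc3 old and 0.16 and 0.14 in Lmyc3 new. The estimate for Lmyc5 new was -0.78 ± 0.024 (limma adjusted p of 8.5e-07), and 67 of the genes tested (77.9%) passed lower, against 22.3% of all genes. Both libraries placed the step just after Clcn6, a lysosomal chloride transporter gene, where the median gene fell from 0.15 to -0.81 and from 0.16 to -0.82. Clcn6 was at 163 and 164 CPM in Lmyc5 new, above the 72.5 to 159 CPM of the other libraries.

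Before that step chromosome 4 was raised in Lmyc5 new from 120 to 140 Mb, at 0.31 and 0.28, with neither window called without Lmyc1 old (0.21 to 0.23) or without Lmyc3 new (0.23 to 0.24). Lmyc3 old was raised from 70 to 110 Mb, at 0.29 to 0.40 in 4 windows, and again from 140 to 160 Mb, at 0.39 and 0.43. Without Lmyc1 old, 3 of the 4 calls from 70 to 110 Mb were kept (0.085 to 0.363). Without Lmyc5 new, 1 of the 2 calls from 140 to 160 Mb was kept (0.18 to 0.345). Chromosome 2 was raised in Lmyc5 new from 150 to 190 Mb, at 0.36 to 0.40 in 4 windows, with 197 of 286 tested genes (68.9%) higher against 26.1% of all genes. Its 2 libraries placed the step at 145.7 and 145.9 Mb. Apart from chromosome 11, taken up next, the remaining runs lay on chromosomes 6 and 18. On chromosome 6, 3 windows from 20 to 50 Mb were lower in Lmyc3 old, from -0.27 to -0.31. None of these calls was kept without Lmyc1 old, at -0.16 to -0.24. On chromosome 18, 2 windows were higher in Lmyc1 old and 2 in Lmyc5 new.

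Chromosome 11 was raised in Lmyc3 old, and by more in its Nfib than in its empty vector library. In that culture 9 of the 13 windows were called higher, from 0.26 to 0.45. The median over the genes of the chromosome was 0.19 in the empty vector and 0.37 in the Nfib library, against -0.03 to -0.15 in the 6 other libraries. Without the Nfib library of Lmyc3 old, 4 of the 9 calls were kept, and without its empty vector library all 9. Without Lmyc3 new, 1 of the 5 calls from 10 to 60 Mb and all 4 from 80 to 120 Mb were kept. The 2 libraries did not give the same step along the chromosome, at 88.1 and 78.0 Mb.

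The ratio of the Nfib to the empty vector library within Lmyc3 old, taken as the median over the genes of a window, was above 0 in all 13 windows of chromosome 11, from 0.09 to 0.38 on the log2 scale. It exceeded 0.25 in 9 of these 13 windows and in 3 of the 239 windows elsewhere. In the other 3 cultures the same windows lay between -0.07 and 0.15. The difference between cultures was not tested, since each culture gives 1 ratio. Chromosome 3 was the lowest in Lmyc3 old, at -0.10.

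**Figure D5:**
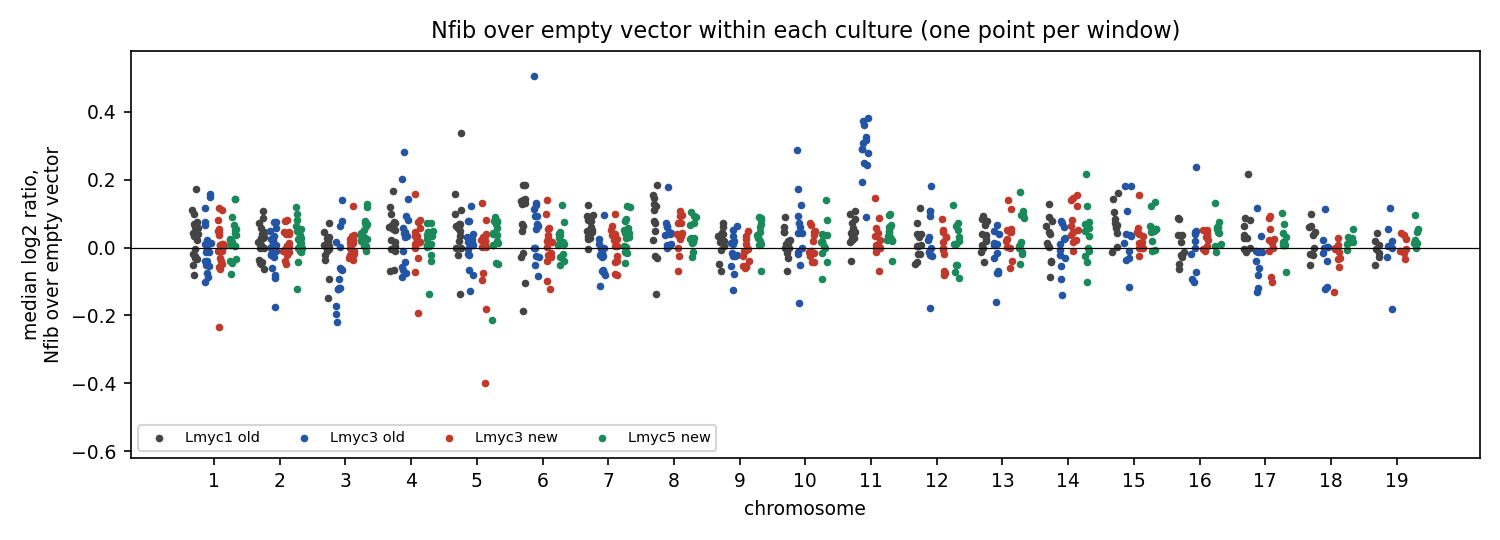
Median log2 ratio of Nfib over empty vector in each window (y axis) by chromosome (x axis), one point per window and colour per culture. The points of chromosome 11 in Lmyc3 old lie together between 0.09 and 0.38, apart from those of the other cultures.

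The Nfib arm was compared with the empty vector arm over all cultures. With values centred over all 8 libraries, limma without the replicate block called no window (0 of 252, 1 at an unadjusted p under 0.05, smallest adjusted p of 0.997). With the replicate block, 1 window was called (0.397% of 252) and 34 had an unadjusted p under 0.05. It is chromosome 15 from 60 to 70 Mb, with 15 genes, of which Myc is 1. Myc itself was low, with a mean of 1.34 CPM. It was at 0.0751 to 2.47 CPM in the empty vector and 0.929 to 3.21 CPM in the Nfib libraries, and single genes were not tested between the arms. The following values are those of the window. Its fitted difference, between medians of values centred over all 8 libraries, was 0.30 ± 0.042 with an adjusted p of 0.0416 with the replicate block. The median ratios within the 4 cultures were smaller, at 0.16, 0.18, 0.16 and 0.13, and the call was lost when each library was also centred on its median over all genes. Of the 252 windows, 65 were higher and 4 lower with Nfib in all 4 cultures. The ratio over all genes was itself above 0 in each culture, at 0.036, 0.014, 0.017 and 0.032, and with it taken off the counts were 24 higher and 36 lower.

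The windows of genes with a known part in SCLC were read next, from a list of 27 genes. Nfib lies on chromosome 4 in the window from 80 to 90 Mb, with 30 genes, that was called higher in Lmyc3 old (0.29 ± 0.045, limma adjusted p of 0.00205), with 0.19 in the empty vector and 0.42 in the Nfib library. That call was lost without the Nfib library (0.19). Nfib itself was at 70.9, 388, 165 and 483 CPM in the empty vector libraries of Lmyc1 old, Lmyc3 old, Lmyc3 new and Lmyc5 new, so the order of the gene was not that of its window. The counts do not separate the introduced from the native Nfib. Cdkn2a, a cell cycle inhibitor gene in the same window, was at 98.4 and 103 CPM in Lmyc3 old and 72.7 to 84.6 CPM elsewhere.

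Mycl lies in the window from 120 to 130 Mb of chromosome 4, which was called higher in Lmyc5 new (0.31 ± 0.021, limma adjusted p of 2.61e-05). The gene passed lower there, with a log2 fold change of -1.04. It was at 117 and 169 CPM in Lmyc5 new and at 140 and 181 CPM in Lmyc1 old. Lmyc3 new had 158 and 263 CPM and Lmyc3 old 448 and 1110 CPM. In Lmyc3 old its log2 fold change was 2.16 ± 0.168. With the arms pooled, Lmyc5 new overlapped with Lmyc1 old and Lmyc3 new, but it was the lowest culture within each arm. Reads of the Mycl transgene cannot be told apart from those of the native gene in these counts. Trp73, a relative of Trp53, lies in the low window at the end of chromosome 4 and was at 40.0 and 33.9 CPM in Lmyc5 new, above the 3.07 to 29.8 CPM of the others.

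Some other genes of the list had the direction of their window and some did not. Rbl1 and E2f1, an RB family gene and an E2F transcription factor gene, lie in the raised window of chromosome 2 from 150 to 160 Mb in Lmyc5 new (0.36). Rbl1 was at 116 and 110 CPM there against 40.4 to 85.9 CPM, and E2f1 at 154 and 141 CPM against 53.5 to 78.4 CPM, both above every other library. Rbl2, in the window from 90 to 100 Mb of chromosome 8, was at 66.3 and 66.6 CPM in Lmyc5 new, where the window was called higher at 0.47, but it did not pass in Lmyc3 new (log2 fold change 0.23, edgeR adjusted p of 0.0932), where the window was called higher at 0.30. Fgfr1 lies in a window called higher in Lmyc3 new (0.57) and had a log2 fold change of -0.56 there (edgeR adjusted p of 0.222). The windows of Rb1, Trp53, Myc and Mycn were not called in any culture, with estimates between -0.19 and 0.23, but the genes themselves differed. Rb1 was at 12 and 11.3 CPM in Lmyc3 old against 25.6 to 40.8 CPM elsewhere. It passed lower there (log2 fold change -1.47) and higher in Lmyc3 new (0.80) and Lmyc5 new (0.55). Myc, at 0.0751 to 3.21 CPM, passed higher in Lmyc1 old (2.11), and Trp53 passed lower there (-0.72). Mycn, which was not tested, was at 13.6 and 9.82 CPM in Lmyc5 new against 0.0751 to 0.688 CPM elsewhere.

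Lmyc3 old and Lmyc3 new carry the same line name, and differed in more windows than each of the other pairs of cultures, though by only 1 window more than Lmyc1 old and Lmyc3 new. They lay 0.5 or more apart in both arms in 28 windows, 10 with Lmyc3 old higher and 18 with it lower, and 17 of these windows were on chromosomes 8 and 18. The corresponding counts were 27 for Lmyc1 old and Lmyc3 new, 18 for Lmyc1 old and Lmyc5 new, 18 for Lmyc3 old and Lmyc5 new, 16 for Lmyc3 new and Lmyc5 new, and 14 for Lmyc1 old and Lmyc3 old. The median difference of all windows between the Lmyc3 cultures was 0.171 in the empty vector and 0.164 in the Nfib arm, against 0.0911 to 0.164 for the other pairs. Single windows away from the runs differed as well, such as chromosome 1 from 100 to 110 Mb (15 genes), at -0.72 and -0.78 in Lmyc3 old and 0.53 and 0.43 in Lmyc3 new. On chromosome 9 from 120 to 130 Mb (43 genes), Lmyc3 old was at -0.66 and -0.62 and Lmyc3 new at 0.31 in both libraries.

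Window values followed the makeup of the windows only weakly. Across the 252 windows, Pearson's r with mean transcript GC content lay between -0.0912 and 0.179 over the 8 libraries (99.4% of genes had a GC value), and r with the log2 number of genes between -0.199 and 0.157. Members of clustered families made up 459 of the 12321 genes, and none of the 50 genes of the highest window.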

How the data were processed

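As deposited, the table holds whole-number counts for each gene, with symbol and coordinates, and no normalization. A TruSeq RNA kit of Illumina was used, per the labels. Per the submitters' processing notes, the tools were SAMtools 0.1.19, TopHat2 2.1, DESeq2 and Bowtie 1.0.0, and the build was GRCm38. Which program counted the reads, with which strand setting and annotation, is not given in the sources used here, so overlapping and antisense genes cannot be told apart. Of 22691 identifiers, 98.8% were in a GRCm38 annotation (GENCODE), and 99.8% of these started within 100 kb of it. Coordinates are those of the table. Groups came from the source field and descriptions.

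Window values and their limma fits (limma 3.58.1 in R 4.3.3) are defined with the results. Genes were tested with edgeR 4.0.16 (original quasi-likelihood form, TMM, edgeR's filter by arm, 13380 genes) for each culture against the other 3, adjusted by Benjamini-Hochberg at 0.05. With the arm in these fits, standard errors and p-values measure how the difference between the arms varied from culture to culture. Technical spread and a response to Nfib that differs by culture are not separated in it. Libraries of the same number come from the same culture, per the descriptions; their window values correlated with r of 0.903 to 0.949 within a number and at most -0.0131 between numbers.

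The windows, gene lists and tests were chosen with earlier results of these data known. Named windows were the 6 highest and 6 lowest called ones with at least 10 genes, all runs of 2 or more called neighbours and the windows of 8 SCLC genes. Named genes were the 3 of highest mean CPM and the 3 of largest log2 fold change in the called direction in each of those 12, and the SCLC list. The other genes of the chromosome 8 block, the genes at steps and edges, and Tnks's neighbours were chosen after their values were seen. Steps are the split of a chromosome's genes into 2 parts with the smallest squared deviation, found per library. Some genes are not reported here. The window fit by culture and the edgeR fit were tested on simulated data. The Nfib and DESeq2 fits were not. Alternatives covered the pseudocount, scaling, gene filters, mean for median, window grid, call size, DESeq2 1.42.0 and each library and culture left out.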

Additional observations from a re-analysis of the deposited data

Results flagged for a closer look

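Within an arm, 32 groups of 4 libraries (named windows by arm) were examined for a library far from the other 3, and 4 were found. Chance gives about 1 in 20 for unselected groups, a rate that does not hold for windows named for their extreme values. The 4 are also 2 windows seen in both arms of 1 culture. All lay in Lmyc1 old on chromosome 8. In the window from 10 to 20 Mb its empty vector library was at 2.35 and its Nfib library at 2.18, with the gap to the nearest library making up 0.884 and 0.858 of the whole range. In the window from 60 to 70 Mb the 2 libraries were at -0.83 and -0.88, with shares of 0.863 and 0.952. The block of 41 genes lies outside the latter window, and its effect on the total moved CPM by 0.051 and 0.044 on the log2 scale. The part of DNA copy number was not tested.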

How the results depend on the processing

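Gene counts per culture stayed within 1.5 times under every alternative run. Window counts changed with the size asked for. At 0.15 they were 52 (Lmyc1 old), 79 (Lmyc3 old), 57 (Lmyc3 new) and 53 (Lmyc5 new), against 26, 45, 30 and 21. At 0.4 they were 11 (Lmyc1 old), 16 (Lmyc3 old) and 10 (Lmyc5 new). With the mean over genes in place of the median they were 45 (Lmyc1 old), 64 (Lmyc3 new) and 54 (Lmyc5 new); 20 of the 26, 30 of the 30 and 16 of the 21 called windows were kept, and the cause was not tested. The Nfib comparison gave 1 window with the replicate block (pairing by culture), 0 without it and 0 in all other alternatives, including the block with each library centred.

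Leaving out a culture or library gave 22 to 26 called windows in Lmyc1 old, 30 to 49 in Lmyc3 old, 26 to 33 in Lmyc3 new, 22 to 30 in Lmyc5 new and 0 for Nfib, and 4372 to 6340, 5862 to 7093, 6257 to 6611 and 5535 to 6960 genes in the same order of cultures. Leaving out a whole culture turned the sign of 3 called windows, all on chromosome 8 without Lmyc1 old: 60 to 70 Mb in Lmyc3 old (from 0.31 to -0.01), 10 to 20 Mb in Lmyc3 new (from -0.50 to 0.24) and 50 to 60 Mb in Lmyc5 new (from 0.26 to -0.12). No run changed sign by its median gene. Among genes, only the named ones were followed, in 175 pairs of gene and culture. In 4 called pairs the log2 fold change turned sign when a culture was left out of the reference. The ranges were -1.565 to 0.155 for Tnks in Lmyc3 new and -2.006 to 0.188 for Atp11a in Lmyc5 new (both turned without replicate 1). For Rassf1 in Lmyc1 old the range was -0.012 to 0.491 (without replicate 2), and for Rbl2 in Lmyc3 old -0.793 to 0.007 (without replicate 4). In 50 other comparisons with an alternative, a named gene kept its sign but lost its call. Correcting for GC content, chosen after seeing the data, left 23 of 26, 42 of 45, 29 of 30 and 20 of 21 calls in place. The neighbour correlation without 1 window and the Nfib ratios less their offset were also chosen after seeing the data.

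With 2 libraries per culture, 4 cultures and no repeat of an arm, these data describe these cultures. Windows of few genes are less certain: 10 hold fewer than 10. Counts of 3 or fewer (0.10 to 0.138 CPM) set the floor for single genes.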

Other observations

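Short groups of neighbouring genes also moved together, some of them inside windows whose value did not follow. In runs of at least 4 neighbouring expressed genes beyond 0.8 in both libraries of a culture, limits set after the values were seen, Lmyc1 old had 8, Lmyc3 old 14, Lmyc3 new 11 and Lmyc5 new 13, of which 7, 9, 5 and 4 lay in a window called in that direction. The Hoxb cluster of developmental transcription factors, with Skap1 beside it (11 genes, chr11:96271457-96759130), had medians of -4.30 and -4.48 in Lmyc3 old although its window was called higher there, and 1.63 and 1.65 in Lmyc3 new. Psmb9, Tap1, Psmb8 and Tap2, genes of antigen processing on chromosome 17, were at -2.04 and -2.54 in Lmyc3 old and at 1.66 and 1.84 in Lmyc3 new. Nkx2-2, Pax1, 9030622O22Rik and Foxa2, mostly developmental transcription factors on chromosome 2, were at -1.84 and -1.80 in Lmyc3 old and 2.08 and 1.96 in Lmyc5 new. Protocadherin genes of chromosome 18 were low in Lmyc3 new (14 neighbours with Zmat2, -1.53 and -1.59) and high in Lmyc5 new (13 genes, 1.58 and 1.87).

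The X chromosome lay outside the rule. Its 13 windows hold 427 expressed genes, with medians per library from -0.10 to 0.06. The lowest window was at -0.69 in the empty vector library of Lmyc3 new and -0.37 in its Nfib library.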
